A study of Mus musculus with 6 samples.

Results

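The core circadian clock genes were followed in heart tissue of mice 3 days after myocardial infarction (MI). The set was fixed by name and holds 10 of the 17441 genes listed in any library, namely the activators *Arntl* (also called *Bmal1*), *Clock* and *Npas2*, the repressors *Per1*, *Per2*, *Per3*, *Cry1* and *Cry2*, and the nuclear receptors *Nr1d1* and *Nr1d2*. Tissue below the ligature of the left coronary artery came from 12-week-old male mice on a C57BL/6 background, and the equivalent tissue was taken from sham-operated mice. There were 2 libraries each of wild-type mice after the sham operation (sham), wild-type mice after infarction (WT MI) and *Card9* knockout mice after infarction (KO MI). Wild-type animals were littermates or C57BL/6 mice. Knockout mice without infarction were not analysed here, and between KO MI and sham the genotype and the infarction cannot be told apart. The sources used here do not give the hour at which hearts were taken or the light cycle of the animals. A group difference in a clock gene therefore cannot be told apart from a difference in the hour of harvest.

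The circadian clock is a feedback loop that runs in nearly every cell, cardiomyocytes included. The *Arntl* product BMAL1 pairs with CLOCK or NPAS2 and binds E-boxes in front of the *Per*, *Cry* and *Nr1d* genes, and PER and CRY proteins then block that pair. REV-ERBα and REV-ERBβ, the products of *Nr1d1* and *Nr1d2*, repress *Arntl* at ROR elements, where the ROR receptors activate it, and PAR-bZIP factors such as DBP act through D-boxes. In the heart, as in other tissues, transcripts of *Arntl* and *Npas2* peak at the opposite phase to those of *Dbp* and the *Per* genes.

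The regulatory letters that this loop uses were looked for around the annotated starts of the members, because each element is the known contact of one arm of the loop. RefSeq windows of the GRCm38.p6 assembly, from 250 bases before a start to 50 after it, were at hand for 9 of the 10 members (13 windows) and were searched on both strands for the E-box CACGTG, the E′-box CACGTT, the D-box TTATGTAA or TTACGTAA, and the ROR element TAGGTCA or TGGGTCA. *Per2* had no window. These elements do not share letters with each other in the sites found. Positions are counted in bases from the start, and the capitals mark the element.
*Arntl*, ROR element at 31, chr7:113207530-113207558, plus strand: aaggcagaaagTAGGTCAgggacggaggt
*Per1*, E-box at −166, chr11:69098772-69098799, plus strand: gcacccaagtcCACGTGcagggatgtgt
*Per3*, D-box at −205, chr4:151044852-151044881, minus strand: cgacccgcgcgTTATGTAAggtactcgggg
*Per3*, D-box at −158, chr4:151044805-151044834, minus strand: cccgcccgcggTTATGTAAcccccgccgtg
*Cry1*, E-box at −60, chr10:85185098-85185125, minus strand: gtgccggtggtCACGTGgggtgcatgcc
*Cry1*, E′-box at −79, chr10:85185117-85185144, minus strand: cacacttcagaAACGTGaggtgccggtg
*Cry2*, E′-box at −166, chr2:92434219-92434246, minus strand: cacatggtgggAACGTGagggggcggag
*Nr1d1*, E′-box at −28, chr11:98775389-98775416, minus strand: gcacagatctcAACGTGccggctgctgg
AACGTG is the E′-box read on the other strand. *Arntl* was the only member with a ROR element in these windows and *Per3* the only one with a D-box. Of all 32851 windows, 7.15% held an E-box, 4.68% an E′-box, 6.45% a ROR element and 1.06% a D-box, and 0.0244% held 2 or more D-boxes as the *Per3* window did. A match describes the letters only.

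Gene levels are FPKM values, calculated by the authors for each gene, that is fragments scaled by transcript length and by the mapped fragments of the library. Genes that reached an FPKM of 1 in 2 or more libraries were tested, which left 13120 genes and all 10 members. The 3 groups were compared on log2(FPKM + 1) in a single limma fit, and a gene was called where the p adjusted over all tested genes by the Benjamini-Hochberg method was below 0.05. The added 1 shrinks the fold change of a low gene. Estimated depth ran from 3008691 to 4289306 fragments, so that 3 fragments would give a 2 kb transcript an FPKM of 0.350 to 0.499. *Per2*, the lowest member in sham and KO MI, had an estimated 18.8 to 28.6 fragments per library there, and *Npas2*, the lowest in WT MI, had 20.0 and 26.0. The labels do not say whether the 2 libraries of a group came from separate animals, so the p-values measure the spread between these libraries.

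The transcript level of the targeted gene went against the labels. *Card9* was at 0.99 and 1.03 FPKM in sham, 3.39 and 5.08 in WT MI and, against the label, 9.85 and 6.94 in KO MI. The libraries labelled KO MI thus did not have less of its transcript, and every direction below that involves them rests on the labels. Gene-level FPKM does not show whether that transcript was intact, and the cause was not tested. Over all tested genes, the median log2 fold change of WT MI against sham was 0.19 in the deposited values, −0.03 after upper-quartile scaling and −0.09 after quantile normalization, and that of KO MI against sham was 0.24, −0.02 and −0.10. A value near 0.2 in these comparisons is therefore no larger than the shift of a typical gene. With upper-quartile scaling the calls between WT MI and sham were 2454 higher and 2351 lower, against 3637 and 1232 as deposited, and those between KO MI and sham were 3040 and 3144, against 4569 and 1875.

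**Figure D1:**
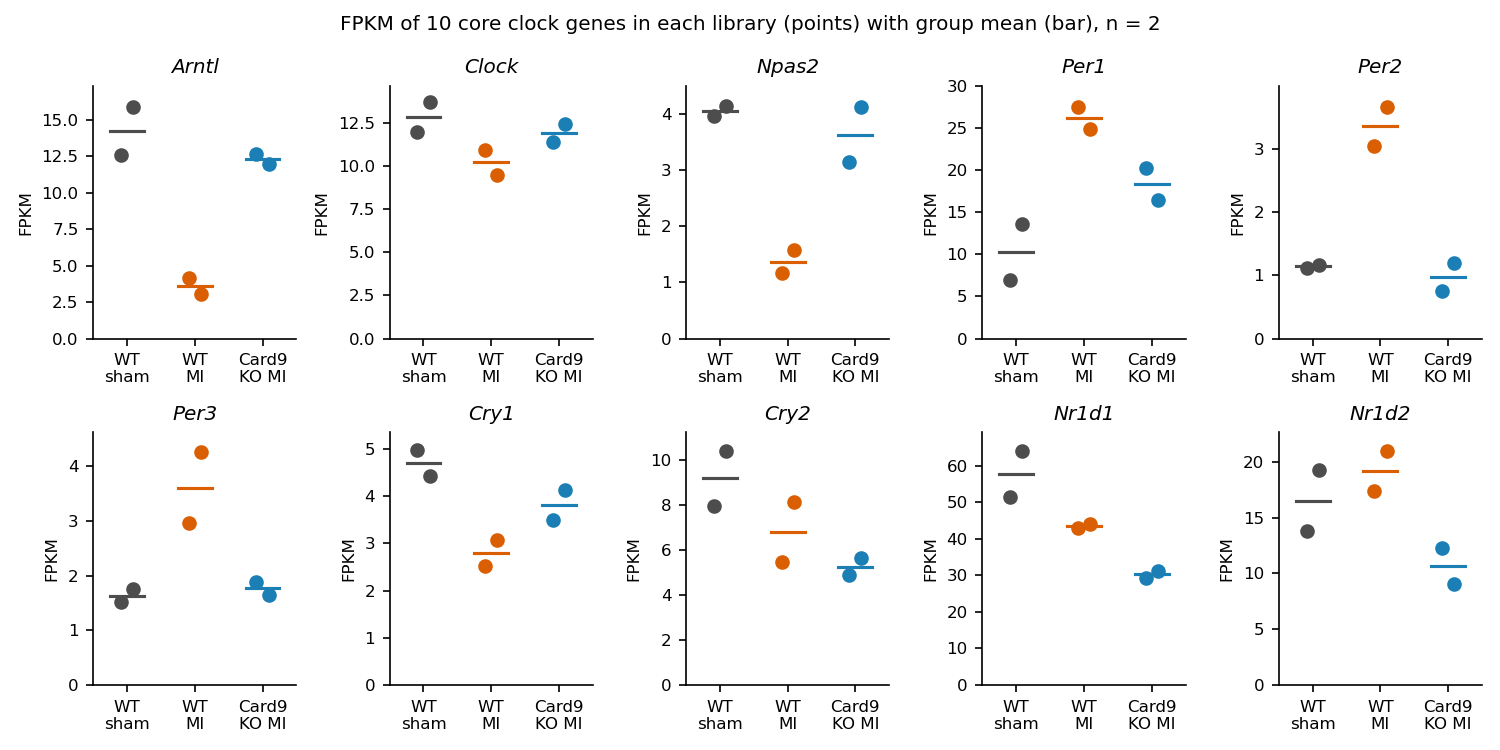
FPKM (y axis, from 0) of each of the 10 core clock genes in sham, WT MI and libraries labelled KO MI (x axis), with a point for each of 2 libraries and a bar at their mean. Arntl and Npas2 are lowest and Per2 and Per3 highest in WT MI, whereas Nr1d1 and Nr1d2 are lowest in the libraries labelled KO MI.

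In WT MI against sham, 7 of the 10 members were called. The 3 *Per* genes were higher (27.7% of all tested genes were called higher), while *Arntl*, *Npas2*, *Cry1* and *Nr1d1* were lower (9.39% of all tested genes were called lower). *Clock*, *Cry2* and *Nr1d2* were not called. The median log2 fold change of the members was −0.35, beside 0.19 for all tested genes. The WT MI and sham libraries did not overlap for 8 of the 10 members, beside 70.4% of all tested genes.

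In the libraries labelled KO MI against WT MI, *Arntl* was the only member called, and it was higher (0.816% of all tested genes were called higher and 0.587% lower). At an unadjusted p below 0.05 limma gave 2 members higher and 4 lower, beside 2629 of all 13120 tested genes in either direction. *Arntl* ranked 24 of 13120 genes by p. The median log2 fold change of the members was −0.40, beside 0.04 for all tested genes. Libraries of these groups did not overlap for 9 of the 10 members, 4 of them higher and 5 lower in KO MI, beside 52.7% of all tested genes in either direction.

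In KO MI against sham, *Per1* was called higher (34.8% of all tested genes were called higher), and *Cry2*, *Nr1d1* and *Nr1d2* were called lower (14.3% were called lower). *Arntl*, *Npas2*, *Per2* and *Per3*, all called in WT MI against sham, were not called here. The median log2 fold change of the members was −0.16, beside 0.24 for all tested genes. The libraries did not overlap for 5 of the 10 members, beside 76.1% of all tested genes. The 3 comparisons share libraries in pairs, so their values are not independent of each other.

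**Figure D2:**
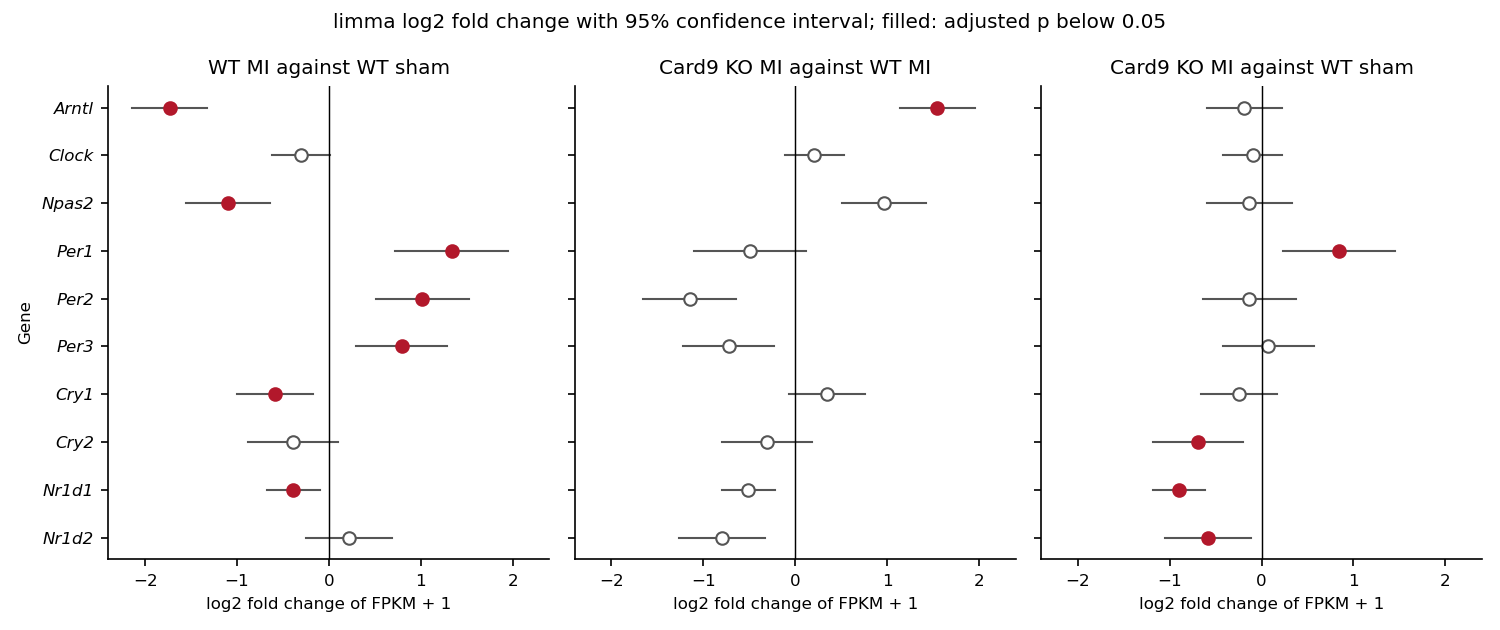
limma log2 fold change of FPKM + 1 (x axis) for each core clock gene (y axis) in the 3 comparisons, with bars for the 95% confidence interval and filled points for an adjusted p below 0.05. Arntl lies at −1.73 in WT MI against sham, 1.55 in KO MI against WT MI and −0.19 in KO MI against sham.

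*Arntl* encodes the activator BMAL1 that no other member replaces in most tissues (NCBI gene 11865, mm9 chr7:120350979-120457636, plus strand). Its level was 12.60 and 15.84 FPKM in sham, 4.13 and 3.03 in WT MI, against 12.66 and 11.95 where the label is KO MI. Both WT MI libraries lay far below the other 4, and the KO MI libraries overlapped the range of sham. The log2 fold change was −1.73 in WT MI against sham (standard error 0.17, limma adjusted p = 0.00031), and this call held under every alternative tried. Between KO MI and WT MI it was 1.55 (standard error 0.17, limma adjusted p = 0.014), and the call was lost without the filter on low values (limma adjusted p = 0.079) and with any 1 of the 4 infarct libraries left out, where it stood at 1.72 without WT MI replicate 1, 1.37 without WT MI replicate 2, 1.51 without KO MI replicate 1 and 1.59 without KO MI replicate 2 (limma adjusted p from 0.058 to 0.097). Between KO MI and sham it was −0.19, with a 95% confidence interval from −0.59 to 0.22 (limma adjusted p = 0.41).

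*Npas2* (NCBI gene 18143, mm9 chr1:39250576-39420079, plus strand), a partner of BMAL1 that can stand in for CLOCK, was at 3.97 and 4.14 FPKM in sham, 1.17 and 1.57 in WT MI, with 3.14 and 4.13 in KO MI. As for *Arntl*, both WT MI libraries were the lowest, and the other groups overlapped. It was lower in WT MI than in sham (log2 fold change −1.10, standard error 0.20, limma adjusted p = 0.0043). Its log2 fold change of 0.96 in KO MI against WT MI did not pass the threshold (standard error 0.20, limma adjusted p = 0.061), except among only the genes listed in all libraries (limma adjusted p = 0.046). Against sham it was −0.13, with a 95% confidence interval from −0.59 to 0.33.

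*Clock* (NCBI gene 12753, mm9 chr5:76639992-76733817, minus strand), the usual partner of BMAL1, varied least of the activators. Its level was 11.94 and 13.72 FPKM in sham, 10.90 and 9.50 in WT MI, with 11.41 and 12.43 in KO MI. The WT MI libraries lay below the others by a small margin. The log2 fold change in WT MI against sham was −0.30 (95% confidence interval from −0.62 to 0.02, limma adjusted p = 0.12), and it passed the threshold with upper-quartile scaling, where it was −0.54 (limma adjusted p = 0.021), with quantile normalization (−0.54, limma adjusted p = 0.022) and with scaling without the 100 most abundant genes (−0.44, limma adjusted p = 0.042). It was 0.21 in KO MI against WT MI and −0.10 against sham, and neither was called.

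The *Per* genes encode the PERIOD repressors, which bind CRY proteins and carry them to the BMAL1 pair. *Per1* (NCBI gene 18626, mm9 chr11:68908719-68923462, plus strand) also answers to glucocorticoids and cAMP. The level of *Per1* was 6.91 and 13.63 FPKM in sham, 27.56 and 24.86 in WT MI, with 20.27 and 16.49 in KO MI. Every infarct library was above both sham libraries, which themselves lay far apart. The log2 fold change was 1.34 in WT MI against sham (standard error 0.26, limma adjusted p = 0.0063) and 0.84 in KO MI against sham (standard error 0.26, limma adjusted p = 0.031). The second of these calls was lost with each of the 3 scalings tried (limma adjusted p from 0.068 to 0.12) and without sham replicate 1, where the log2 fold change was 0.40 (limma adjusted p = 0.10). It was also lost without the filter on low values (limma adjusted p = 0.073), in a fit of only the 2 groups compared (limma adjusted p = 0.054), in eBayes without trend (limma adjusted p = 0.055), without WT MI replicate 1 or 2, at the same fold change (limma adjusted p = 0.054 in both), without KO MI replicate 1 (0.70, limma adjusted p = 0.16) and without KO MI replicate 2 (0.98, limma adjusted p = 0.057). In WT MI against sham the log2 fold change ranged from 0.89 without sham replicate 1 to 1.78 without sham replicate 2, and the call held. KO MI against WT MI was −0.49, with a 95% confidence interval from −1.11 to 0.12.

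*Per2* (NCBI gene 18627, mm9 chr1:93312561-93355907, minus strand), whose loss disrupts rhythms most among the *Per* genes, was low in all libraries. Its level was 1.12 and 1.17 FPKM in sham, 3.05 and 3.66 in WT MI, with 0.75 and 1.19 in KO MI. The WT MI libraries stood above the other 4, and the other groups overlapped. It was higher in WT MI than in sham (log2 fold change 1.02, standard error 0.22, limma adjusted p = 0.0085), with the call lost under quantile normalization (limma adjusted p = 0.052) and without WT MI replicate 2 (0.92, limma adjusted p = 0.058). In KO MI against WT MI it was −1.15 (standard error 0.22, limma adjusted p = 0.053), just outside the threshold. It passed with 5 in place of 1 added before the logarithm (−0.48, limma adjusted p = 0.039), with quantile normalization (−1.28, limma adjusted p = 0.042) and among only the genes listed in all libraries (limma adjusted p = 0.034).

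*Per3* (NCBI gene 18628, mm9 chr4:150377761-150418774, minus strand), an accessory PERIOD protein and the member with 2 D-boxes in its window, was at 1.52 and 1.75 FPKM in sham, 2.96 and 4.26 in WT MI, with 1.89 and 1.65 in KO MI. Again only the WT MI libraries stood apart. It was higher in WT MI than in sham (log2 fold change 0.79, standard error 0.21, limma adjusted p = 0.022). That call was lost with upper-quartile scaling (0.63, limma adjusted p = 0.052) and quantile normalization (0.44, limma adjusted p = 0.14), without sham replicate 1 (0.73, limma adjusted p = 0.085) or replicate 2 (0.86, limma adjusted p = 0.059) and without WT MI replicate 2 (0.59, limma adjusted p = 0.13). It was −0.72 in KO MI against WT MI (standard error 0.21, limma adjusted p = 0.13) and 0.07 against sham (95% confidence interval from −0.42 to 0.57). The estimates for the 3 *Per* genes in WT MI against sham stayed above 0 under every scaling.

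The *Cry* genes encode the cryptochromes, the strongest repressors of the BMAL1 pair, and in WT MI their estimates lay on the other side of 0 from those of the *Per* genes. *Cry1* (NCBI gene 12952, mm9 chr10:84594447-84647799, minus strand) was at 4.97 and 4.43 FPKM in sham, 2.51 and 3.08 in WT MI, with 3.50 and 4.12 in KO MI. The groups did not overlap, with KO MI between the others. It was lower in WT MI than in sham (log2 fold change −0.59, standard error 0.18, limma adjusted p = 0.035). The call was lost without the filter on low values (limma adjusted p = 0.061), without sham replicate 1 (−0.52, limma adjusted p = 0.13), sham replicate 2 (−0.66, limma adjusted p = 0.075), WT MI replicate 1 (−0.48, limma adjusted p = 0.16) or WT MI replicate 2 (−0.70, limma adjusted p = 0.065). KO MI was not called against WT MI (0.34, limma adjusted p = 0.33) or against sham (−0.25, limma adjusted p = 0.29), the latter except with quantile normalization (−0.66, limma adjusted p = 0.019).

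*Cry2* (NCBI gene 12953, mm9 chr2:92243803-92274200, minus strand), the paralog with the flatter rhythm in most tissues, was at 7.97 and 10.43 FPKM in sham, 5.48 and 8.17 in WT MI, with 4.88 and 5.64 in KO MI. The WT MI libraries spanned much of the distance between the other groups and overlapped both. *Cry2* was lower in KO MI than in sham (log2 fold change −0.70, standard error 0.21, limma adjusted p = 0.027), and the call was lost without the filter on low values (limma adjusted p = 0.059), without sham replicate 2 (−0.52, limma adjusted p = 0.14), KO MI replicate 1 (−0.61, limma adjusted p = 0.13) or KO MI replicate 2 (−0.78, limma adjusted p = 0.059). WT MI against sham was −0.39 (95% confidence interval from −0.88 to 0.10), and it passed with quantile normalization only (−0.65, limma adjusted p = 0.046). *Cry2* shares 295 exon bases with D930015M05Rik, a non-coding RNA on the opposite strand whose FPKM was 0.41 to 0.87. Whether counting used strand was not stated.

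The REV-ERB genes had another order of groups. *Nr1d1* (NCBI gene 217166, mm9 chr11:98629246-98636647, minus strand), the repressor of *Arntl* that is itself switched on by the BMAL1 pair, was the most abundant member, with an FPKM of 51.31 and 64.03 in sham, 43.03 and 44.06 in WT MI, with 29.33 and 31.29 in KO MI. The 3 groups did not overlap, and WT MI lay between the others. It was lower in KO MI than in sham (log2 fold change −0.90, standard error 0.12, limma adjusted p = 0.00078), a call kept under every alternative except the added demand of a 2-fold change. In WT MI against sham it was −0.39 (standard error 0.12, limma adjusted p = 0.041). The latter call was lost without the filter on low values (limma adjusted p = 0.063), in a fit of only the 2 groups compared (limma adjusted p = 0.051) and in eBayes without trend (limma adjusted p = 0.086). It was also lost without sham replicate 2 (−0.23, limma adjusted p = 0.21), WT MI replicate 1 (−0.37, limma adjusted p = 0.16), WT MI replicate 2 (−0.41, limma adjusted p = 0.13) or either KO MI library (limma adjusted p = 0.054 in both). KO MI against WT MI was −0.51, with a 95% confidence interval from −0.80 to −0.22 before adjustment (limma adjusted p = 0.094). *Nr1d1* shares 263 exon bases with *Thra*, a thyroid hormone receptor gene on the opposite strand, whose FPKM was 37.95 and 40.61 in sham, 28.8 and 28.14 in WT MI, with 28.6 and 30.44 in KO MI. *Thra* was lower in WT MI than in sham (log2 fold change −0.45, limma adjusted p = 0.011), a call lost without sham replicate 2 (−0.40), WT MI replicate 1 (−0.47) or WT MI replicate 2 (−0.43, limma adjusted p from 0.054 to 0.061 over the 3). It was 0.05 in KO MI against WT MI, where its libraries overlapped and those of *Nr1d1* did not. *Thra* was also lower in KO MI than in sham (−0.40, limma adjusted p = 0.013), in the same direction as *Nr1d1*, and that call was lost without sham replicate 2 (−0.35) or KO MI replicate 1 (−0.36, limma adjusted p = 0.067 in both).

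*Nr1d2* (NCBI gene 353187, mm9 chr14:19036568-19071641, minus strand), the partly redundant paralog, was at 13.76 and 19.21 FPKM in sham, 17.36 and 20.94 in WT MI, with 12.24 and 9.04 in KO MI. Both KO MI libraries lay below the other 4, which overlapped. It was lower in KO MI than in sham (log2 fold change −0.58, standard error 0.20, limma adjusted p = 0.044). That call was lost without the filter on low values (limma adjusted p = 0.085), in a fit of only the 2 groups compared (limma adjusted p = 0.062), in eBayes without trend (limma adjusted p = 0.069), without sham replicate 2 (−0.36, limma adjusted p = 0.23), without KO MI replicate 2 (−0.38, limma adjusted p = 0.22) and without WT MI replicate 1 (limma adjusted p = 0.061) or replicate 2 (limma adjusted p = 0.062). In KO MI against WT MI it was −0.80 (standard error 0.20, limma adjusted p = 0.097). WT MI against sham was 0.22 (limma adjusted p = 0.43), and it turned to −0.02 with upper-quartile scaling.

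FPKM is per length, so the levels of the members can be ordered within a group. In sham *Nr1d1* had the highest mean FPKM, 57.7, followed by *Nr1d2* at 16.5, *Arntl* at 14.2, *Clock* at 12.8, *Per1* at 10.3 and *Cry2* at 9.20, and neighbours from *Nr1d2* to *Cry2* overlapped in their libraries. *Cry1* at 4.70, *Npas2* at 4.06, *Per3* at 1.64 and *Per2* at 1.15 followed without overlap. In WT MI the order of means was *Nr1d1* at 43.5, *Per1* at 26.2, *Nr1d2* at 19.2, *Clock* at 10.2 and *Cry2* at 6.83, all without overlap between neighbours, and then *Per3* at 3.61, *Arntl* at 3.58, *Per2* at 3.36 and *Cry1* at 2.80, where neighbours overlapped. *Npas2* was the lowest there, at 1.37. *Arntl* was thus at rank 3 of the 10 in sham, 7 in WT MI and 3 in KO MI, where *Arntl* at 12.3, *Clock* at 11.9 and *Nr1d2* at 10.6 overlapped in neighbouring pairs. There *Nr1d1* at 30.3 and *Per1* at 18.4 stood above them, and *Cry2* at 5.26, *Cry1* at 3.81, *Npas2* at 3.64, *Per3* at 1.77 and *Per2* at 0.97 below, with an overlap only between *Cry1* and *Npas2*.

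Ratios between members of the same library are free of library scaling apart from the added 1. They were taken as the difference of log2(FPKM + 1), and with 2 libraries against 2 an exact permutation test cannot give a two-sided p under 0.333, so they are given without a test. The ratio of *Arntl* to *Per2* was 2.68 and 2.96 in sham, 0.34 and −0.21 in WT MI, with 2.96 and 2.56 in KO MI. On this log2 scale both genes were thus nearly level in WT MI, and *Arntl* was well above *Per2* in the other groups, which overlapped. The ratio of *Arntl* to *Per3* was 2.43 and 2.61 in sham, 0.37 and −0.38 in WT MI, with 2.24 and 2.29 in KO MI. For *Arntl* to *Dbp*, a D-box factor gene and direct target of the BMAL1 pair, it was 0.60 and 0.51, then −2.30 and −3.12, and then 0.26 and 0.51 in the same order of groups. All 3 ratios placed both WT MI libraries apart from the other 4.

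Other pairs separated the groups differently. The ratio of *Arntl* to its repressor *Nr1d1* was −1.94 and −1.95 in sham, −3.10 and −3.48 in WT MI, with −1.15 and −1.32 in KO MI, so that no groups overlapped and KO MI was the highest. That of *Clock* to *Npas2* was 1.38 and 1.52 in sham, 2.46 and 2.03 in WT MI, with 1.58 and 1.39 in KO MI, with both WT MI libraries above the rest. For *Cry1* to *Cry2* it was −0.59 and −1.07, −0.88 and −1.17, and −0.39 and −0.38 in the same order. Only KO MI stood apart in this pair. The ratio of *Per1* to *Per2* was 1.90 and 2.75 in sham, 2.82 and 2.47 in WT MI, with 3.60 and 3.00 in KO MI, and that of *Nr1d1* to *Nr1d2* was 1.83 and 1.69, 1.26 and 1.04, and 1.20 and 1.69. In the last pair the KO MI libraries spanned the gap between the other groups.

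**Figure D3:**
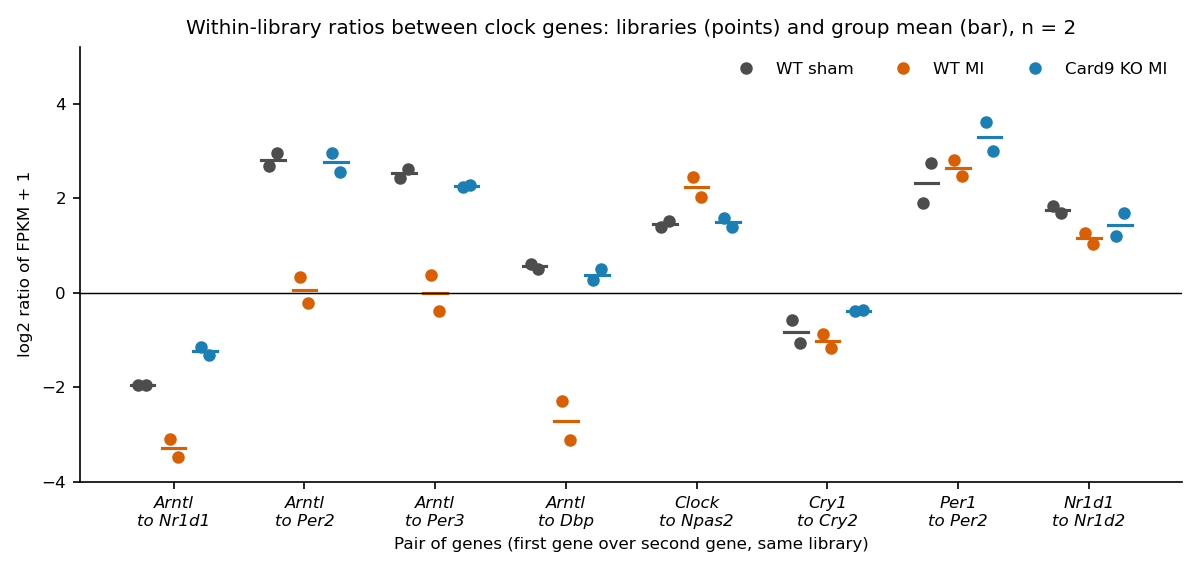
Within-library log2 ratio of FPKM + 1 (y axis) for 8 pairs of clock genes (x axis), with a point for each of 2 libraries per group and a bar at their mean. The ratios of Arntl to Per2, Per3 and Dbp lie between −3.12 and 0.37 in WT MI and between 0.26 and 2.96 in the other groups.

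A list of 23 genes linked to the clock outside its core was followed in the same fit, of which 21 could be tested. *Rorb* and *Fbxl21* were too low. In WT MI against sham 6 were called higher and 0 lower by limma, beside 27.7% and 9.39% of all tested genes. The median log2 fold change was 0.15, beside 0.19 over all. At an unadjusted p below 0.05 limma gave 6 higher and 0 lower, beside 6137 of all 13120 tested genes in either direction. In KO MI against WT MI 0 were called higher and 2 lower by limma, beside 0.816% and 0.587% of all tested genes. The median was −0.0020, beside 0.04 over all. At an unadjusted p below 0.05 limma gave 1 higher and 6 lower, beside 2629 of all 13120 tested genes in either direction. Between KO MI and sham 6 were higher and 3 lower, with a median of 0.09, beside 34.8% and 14.3% and a median of 0.24 over all. The share called higher in each comparison with sham was thus near or below that of all genes.

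Among the PAR-bZIP factors, which bind D-boxes, *Dbp* was at 7.95 and 10.85 FPKM in sham, 24.26 and 33.92 in WT MI, with 10.42 and 8.11 in KO MI. Its WT MI libraries stood above the other 4, the mirror image of *Arntl*. The log2 fold change was 1.53 in WT MI against sham (standard error 0.21, limma adjusted p = 0.0012) and −1.54 in KO MI against WT MI (standard error 0.21, limma adjusted p = 0.024). The second call was lost without the filter (limma adjusted p = 0.091), in eBayes without trend (limma adjusted p = 0.062), without WT MI replicate 1 (−1.78, limma adjusted p = 0.097) or replicate 2 (−1.31, limma adjusted p = 0.14), and without KO MI replicate 1 (−1.70, limma adjusted p = 0.090) or replicate 2 (−1.38, limma adjusted p = 0.075). *Tef*, of the same family, had an FPKM of 23.2 and 19.53, 19.97 and 25.33, and 13.05 and 11.67 in sham, WT MI and KO MI, and *Hlf* had 4.47 and 5.12, 2.98 and 3.82, and 1.91 and 2.24. Both were lowest in KO MI and lower there than in sham (log2 fold change −0.74 for *Tef* and −0.91 for *Hlf*, limma adjusted p = 0.0053 and 0.0051). *Tef* was at −0.82 between KO MI and WT MI (standard error 0.15, limma adjusted p = 0.053), just outside the threshold, and it passed with each of the 3 scalings (limma adjusted p from 0.038 to 0.048), with 5 added before the logarithm (0.048), at a mean FPKM of at least 5 (0.037) and among only the genes listed in all libraries (0.036). *Hlf* in WT MI against sham was −0.40 (limma adjusted p = 0.13), and it passed with upper-quartile scaling (−0.61, limma adjusted p = 0.039) and quantile normalization (−0.71, limma adjusted p = 0.024). *Nfil3*, the repressor at D-boxes, ranged from 8.33 to 15.47 FPKM and was called in no comparison.

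*Rora* encodes a receptor that activates *Arntl* at the element that REV-ERB proteins occupy. Its level was 2.68 and 3.2 FPKM in sham, 4.35 and 4.01 in WT MI, with 2.96 and 3.23 in KO MI. Both WT MI libraries lay above the rest, but *Rora* was called in no comparison. The log2 fold change was 0.40 in WT MI against sham (limma adjusted p = 0.11) and −0.34 in KO MI against WT MI (limma adjusted p = 0.32).

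The accessory repressors split. *Bhlhe40* and *Bhlhe41*, which compete for E-boxes, were higher in both infarct groups than in sham. *Bhlhe40* was at 28.97 and 21.48 FPKM in sham, 52.26 and 42.38 in WT MI, with 50.29 and 46.98 in KO MI (log2 fold change 0.89 and 0.93 against sham, limma adjusted p = 0.0044 and 0.0023). For *Bhlhe41* the log2 fold changes were 0.86 and 0.80 (limma adjusted p = 0.0054 and 0.0051), the second lost with quantile normalization (limma adjusted p = 0.085). *Ciart*, a repressor with 3 E-boxes in its window, had instead an FPKM of 1.83 and 1.91 in sham, 3.75 and 3.49 in WT MI, with 1.85 and 1.75 in KO MI, with the WT MI libraries above the rest. It was higher in WT MI than in sham (0.69, limma adjusted p = 0.020), a call lost with upper-quartile scaling (limma adjusted p = 0.058), with quantile normalization (0.34, limma adjusted p = 0.18) and without sham replicate 1 (limma adjusted p = 0.068), sham replicate 2 (limma adjusted p = 0.062), WT MI replicate 1 (limma adjusted p = 0.10) or WT MI replicate 2 (limma adjusted p = 0.069). *Cipc*, an inhibitor of the CLOCK pair, ranged from 12.55 to 17.73 FPKM and was not called, except as lower in KO MI than in sham with upper-quartile scaling (−0.49, limma adjusted p = 0.018) and quantile normalization (−0.48, limma adjusted p = 0.020).

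Among genes for kinases, protein turnover and partners of the clock proteins, *Usp2*, a deubiquitinase, was at 33.97 and 34.19 FPKM in sham, 35.68 and 35.05 in WT MI, with 16.08 and 21.11 in KO MI. *Usp2* lay far lower in both KO MI libraries than in any sham or WT MI library. It was lower there than in sham (log2 fold change −0.85, limma adjusted p = 0.0016) and than in WT MI (−0.90, limma adjusted p = 0.034), and the second call was lost with any 1 of the 6 libraries left out (limma adjusted p from 0.055 to 0.23, log2 fold change from −1.09 to −0.72), as it was without the filter (limma adjusted p = 0.091), in a fit of only the 2 groups compared (0.057) and in eBayes without trend (0.091). *Nono*, which encodes a partner of PER proteins, was higher than in sham in both infarct groups (log2 fold change 0.70 and 1.01, limma adjusted p = 0.0019 and 0.00021). *Fbxw11*, a subunit of a ubiquitin ligase, was also called higher in both (0.52 and 0.46), and *Csnk1d*, a kinase of PER proteins (0.41), and *Timeless* (0.55) only passed the threshold in KO MI against sham. The calls of these last 3 genes were lost with upper-quartile scaling, with limma adjusted p of 0.11 and 0.30 for *Fbxw11*, 0.45 for *Csnk1d* and 0.19 for *Timeless*. Left-out libraries ended them too. For *Fbxw11* the log2 fold change of WT MI against sham was 0.47 without sham replicate 2 and 0.40 without WT MI replicate 1 (limma adjusted p = 0.074 and 0.11), and that of KO MI against sham was 0.41 without sham replicate 2, 0.43 without KO MI replicate 1 and 0.48 without its replicate 2 (limma adjusted p from 0.057 to 0.094). *Csnk1d* was at 0.30 without sham replicate 2 and at 0.33 without KO MI replicate 1 (limma adjusted p = 0.15 and 0.16). *Timeless* was no longer called without sham replicate 2 (0.36, limma adjusted p = 0.16) or without any 1 of the 4 infarct libraries (0.54 to 0.57, limma adjusted p from 0.056 to 0.13).

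**Figure D4:**
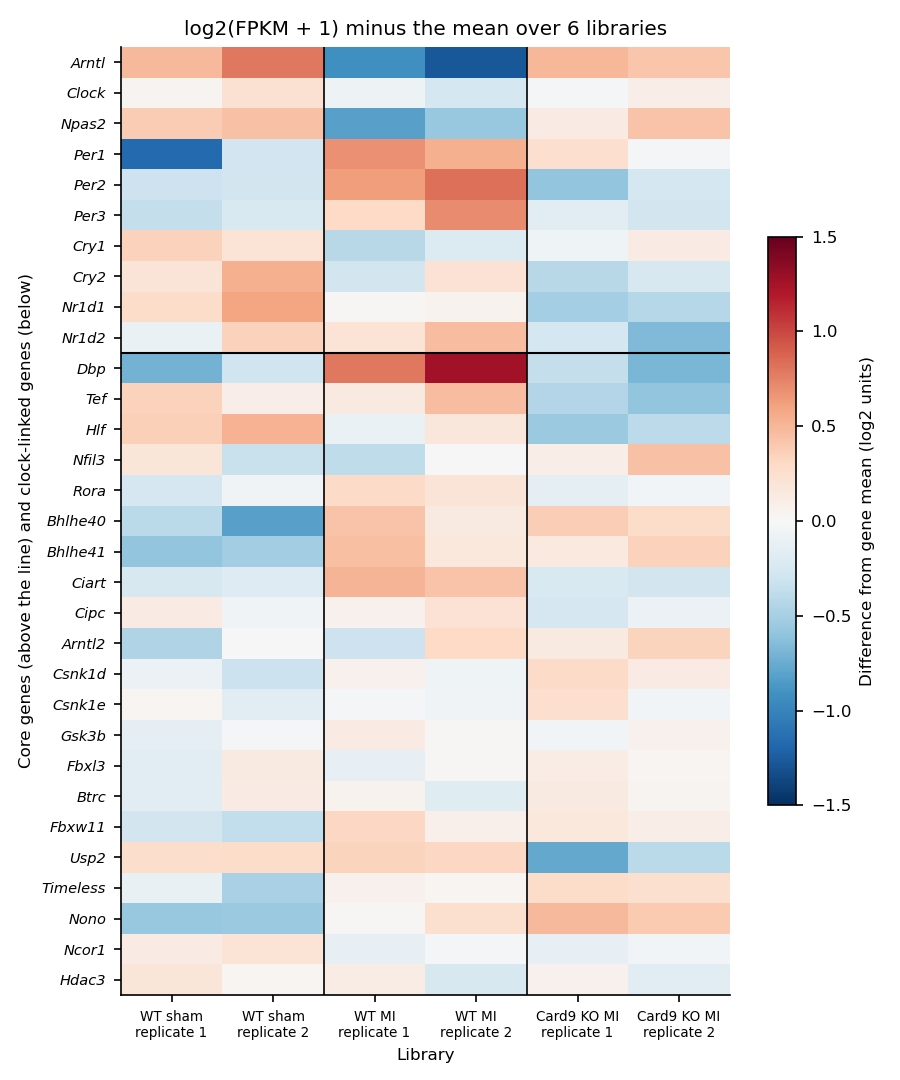
Difference of log2(FPKM + 1) from the gene's mean over 6 libraries (color, log2 units, clipped at −1.5 and 1.5) for the 10 core clock genes above the line and the 21 tested clock-linked genes below it (y axis), by library (x axis). Arntl and Npas2 are blue and Per2, Per3, Dbp and Ciart are red in both WT MI libraries only, and Usp2 is blue in both libraries labelled KO MI only.

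Profiles most like those of 3 members were found among the 13119 other tested genes, by the root-mean-square difference of log2(FPKM + 1) after each gene was centred on its mean over the 6 libraries. For *Arntl* the nearest genes were *Rn4.5s*, *Rgs4*, *Gm3696*, *AI507597* and *Npas2*, with differences from 0.27 to 0.36. *Npas2* was thus the nearest clock gene, at rank 5. For *Per3* they were *Sema3b*, *Zmynd19*, *Slit3*, *Thumpd3* and *Vdac2* (0.11 to 0.14), with *Ciart* at rank 8. For *Nr1d1* they were *4930455H04Rik*, *Entpd5*, *Mpped2*, *Mfn1* and *Dusp18* (0.039 to 0.075), with *Hlf* at rank 13. With 6 libraries, this is a description of likeness only.

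Markers of the cell types in this tissue also moved with infarction. In a bulk sample, fewer cells of a type and less RNA per cell cannot be told apart. Cardiomyocyte markers summed to 52770 and 54555 FPKM in sham, 31999 and 32865 in WT MI, with 26786 and 31095 in KO MI, and the tissue thus expressed them strongly in every library. Of 10, 8 were lower in WT MI and 10 in KO MI than in sham, and limma called 0 between the infarct groups (3 at an unadjusted p below 0.05). Macrophage markers summed to 181 to 211 FPKM in sham, 701 to 842 in WT MI and 1078 to 1486 in KO MI, and all 10 were higher in both infarct groups than in sham. Between the infarct groups limma called 0 of these 10 (5 at an unadjusted p below 0.05), with a median log2 fold change of 0.66. Neutrophil markers summed to 5.40 and 7.74 FPKM in sham, 221 and 93.9 in WT MI, with 57.8 and 45.6 in KO MI. All 6 that could be tested were higher than in sham in both infarct groups, and 0 were called between these by limma (3 at an unadjusted p below 0.05), with a median of −1.18. *Mpo* was at 0 in both sham and both WT MI libraries, and *Ly6g* was not among the genes listed. Over all 13120 tested genes, 2629 had an unadjusted p below 0.05 by limma between the infarct groups.

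Fibroblast markers summed to 489 to 512 FPKM in sham, 1479 to 2003 in WT MI and 3059 to 3188 in KO MI. Of 8, 6 were higher in WT MI and 7 in KO MI than in sham, beside 27.7% and 34.8% of all tested genes. Between the infarct groups 3 were higher in KO MI, beside 0.816% of all tested genes. Of the others, *Pdgfra* had a log2 fold change of −0.52 in KO MI against WT MI (limma adjusted p = 0.094). *Dcn* was called in no comparison. Smooth muscle and pericyte markers summed to 193 to 219, 261 to 277 and 500 to 520 FPKM in the same order, with 2 of 6 higher in KO MI than in WT MI. Relative to sham, 4 were higher and 1 lower in WT MI, and 5 were higher and 1 lower in KO MI. The lower one was *Rgs5* in both (log2 fold change −0.58 and −0.50, limma adjusted p = 0.0031 and 0.0042). Endothelial markers summed to 334 to 341, 351 to 353 and 396 to 399 FPKM, with members called in both directions. Against sham, WT MI had 2 of 8 higher and 1 lower, beside 27.7% and 9.39% of all tested genes. In KO MI 3 (*Pecam1*, *Cdh5* and *Vwf*) were higher and 2 (*Kdr* and *Flt1*) lower, beside 34.8% and 14.3%. The shares called higher were thus near those of all tested genes. Adipocyte markers ranged from 0.99 to 16.0 FPKM with none of the 2 tested called by limma. The neutrophil sums were highest in WT MI, and the cardiomyocyte sums were highest in sham and lowest in KO MI. A sum rests mostly on its most abundant markers, and single markers can move otherwise, as *Pdgfra* did. The part of cell makeup in the clock values was not tested.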

How the data were processed

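Groups and replicate numbers came from the sample labels. The authors enriched mRNA, sequenced it, mapped the reads to mm9 with BWA and Bowtie2 (as the submitters' processing notes name the tools) and deposited FPKM values, rounded to 2 decimals, under NCBI gene numbers. Genes at 0 are left out of the deposited files. Since FPKM is a share of the library scaled by transcript length, a large change of abundant genes shifts all others. The annotation and the use of strand are not given in the sources used here. Unlisted genes were set to 0.

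Members were matched by symbol to gene numbers. The main test was limma 3.58.1 in R 4.3.3 (lmFit, eBayes with trend) on log2(FPKM + 1), with 3 groups in 1 fit, no covariates and Benjamini-Hochberg adjustment over 13120 genes. It was tested on simulated data. Tables, ratios and figures used pandas 2.3.3, numpy 2.4.6 and matplotlib 3.10.9 in Python 3.11.15. Upper quartiles were taken over all 17441 genes, zeros included. Depth was estimated from the steps between low FPKM values. Only 61.5% to 65.8% of them came out as whole fragments within 0.1, so no count test was run, and estimated fragments cover counting error only.

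Named genes are all members, *Card9*, genes that overlap a member, the D-box factors, *Rora* and accessory repressors of the clock-linked list with any others called, and the 5 profiles nearest to *Arntl*, *Per3* and *Nr1d1*. 1 gene linked to the clock is not reported here. Members and lists were chosen with earlier results of these data known. Positions of genes are those of GENCODE on mm9, and promoter letters those of RefSeq on GRCm38.p6. The alternatives were 0.1 or 5 added before the logarithm, no filter, a mean FPKM of at least 5, only genes listed in all libraries, 3 other scalings, a fit of the compared pair alone, no trend in eBayes, a block for the replicate number, a required 2-fold change, and each library left out.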

Additional observations from a re-analysis of the deposited data

How the results depend on the processing

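In WT MI against sham, 1 member was called higher with a mean FPKM of at least 5 or with quantile normalization, in place of 3, and 2 were called lower with no filter, with a mean FPKM of at least 5 or with a 2-fold change required, in place of 4. The demand for a mean FPKM of at least 5 left *Npas2*, *Per2*, *Per3* and *Cry1* untested. The smaller counts under that demand came from their removal, not from lost calls. The lower calls rose to 5 with upper-quartile scaling or scaling without the 100 most abundant genes, and to 6 with quantile normalization. With each library left out, 1 to 3 were higher and 2 to 3 lower. In KO MI against WT MI, 0 members were called higher by limma with no filter and 2 among genes listed in all libraries, in place of 1, and 1 was called lower with 5 added before the logarithm, with genes listed in all libraries or with quantile normalization, in place of 0. With each library left out, 0 to 1 were higher and 0 lower by limma (2629 of all genes had an unadjusted p below 0.05). In KO MI against sham, limma called 0 higher with no filter, each of the 3 scalings, only the groups compared, no trend or a 2-fold change required, and 1 lower with no filter and 0 with a 2-fold change required, in place of 1 and 3. With each library left out, 0 to 1 were higher and 1 to 3 lower.

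Over all tested genes, the calls of WT MI against sham numbered 2198 higher and 2447 lower with quantile normalization, 2351 lower with upper-quartile scaling, 1529 and 178 with a 2-fold change required, and 2256 to 3487 higher and 627 to 1193 lower with a library left out. Those of KO MI against WT MI numbered 47 and 33 with 0.1 added, 200 higher with 5 added, 7 and 5 without a filter, 136 lower at a mean FPKM of at least 5, 163 and 134 among genes listed in all libraries, 118 lower with quantile normalization, 69 and 32 in a fit of only the 2 groups, 40 and 18 without trend, 61 and 35 with a 2-fold change required, and 3 to 63 and 5 to 33 with a library left out. Those of KO MI against sham numbered 3040 and 3144 after upper-quartile scaling, 2755 and 3444 with quantile normalization, and 2128 and 416 with a 2-fold change required.

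Deviations of same-numbered libraries had a correlation over the tested genes of 0.0024, 0.020 and −0.0083 in the 3 comparisons. Whether libraries were handled in pairs is not settled by these values. With the replicate block, the calls of KO MI against WT MI were 45 higher and 26 lower over all genes. The block ended the calls of *Usp2* in that comparison and of *Nr1d2* in KO MI against sham (limma adjusted p = 0.056 and 0.060).

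Without a pseudocount most within-library log2 ratios widened. Exceptions were *Per1* to *Per2* in WT MI minus sham, which went from 0.32 to −0.11, *Arntl* to *Per2* in KO MI minus sham, from −0.05 to 0.08, and *Nr1d1* to *Nr1d2* there, from −0.32 to −0.29. In WT MI minus sham, *Arntl* to *Nr1d1* was −1.60, *Arntl* to *Per2* −3.54, *Arntl* to *Per3* −3.12, *Arntl* to *Dbp* −3.62 and *Clock* to *Npas2* 1.25. In KO MI minus WT MI, they were 2.32, 3.62, 2.81 for the first 3, −1.18 for *Clock* to *Npas2* and 1.30 for *Per1* to *Per2*.

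Estimates near 0 that were not called changed sign. The values that follow are for upper-quartile scaling, then quantile normalization and then, where given, scaling without the 100 most abundant genes. In this order the log2 fold change of WT MI against sham was −0.020 and −0.015 for *Nr1d2*, −0.16, −0.13 and −0.068 for *Tef*, −0.13, −0.11 and −0.034 for *Cipc*, −0.19, −0.13 and −0.095 for *Usp2*, and −0.032 and −0.0047 for *Csnk1d*. That of KO MI against sham was −0.12, −0.39 and −0.036 for *Per3* and −0.17, −0.39 and −0.071 for *Rora*. With upper-quartile scaling, KO MI against WT MI was −0.0069 for *Bhlhe40* and −0.0017 for *Thra*. With a library left out, WT MI against sham ranged from −0.010 to 0.44 for *Nr1d2*, from −0.088 to 0.24 for *Tef* and from −0.38 to 0.14 for *Nfil3*, KO MI against WT MI from −0.10 to 0.19 for *Bhlhe40*, from −0.20 to 0.084 for *Bhlhe41* and from −0.18 to 0.053 for *Fbxw11*, and KO MI against sham from −0.29 to 0.021 for *Npas2*, from −0.29 to 0.030 for *Per2*, from −0.22 to 0.19 for *Dbp* and from −0.037 to 0.15 for *Rora*. No estimate for a member changed sign between KO MI and WT MI under any alternative run. A member left with 1 library in a group was assumed to vary like the other groups. The cause of these changes was not tested. Depth limits *Per2* most in sham and KO MI and *Npas2* most in WT MI.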
